A study of Homo sapiens with 6 samples.

Results

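The 44 genes described here encode the kinases, spindle proteins, condensins, cohesins, anaphase regulators and cytokinesis proteins that carry a cell through mitosis. They were chosen by symbol for their roles in these processes, with earlier results of these data known, so their direction is not independent evidence. All 44 were found among the 62703 genes of the deposited count table. The RNA came from A549, a human cell line from an adenocarcinoma of the lung, cultured in S-AlgLung hydrogel (3 libraries) or in AlgLung hydrogel (3 libraries). The labels name no other agent or genotype and leave the S unexplained, while the study's title is about matrix sulfation. Nothing states that replicates came from different cultures, so the p-values capture spread among libraries that may be technical.

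Mitotic genes are mostly transcribed late in the cell cycle. Entry is driven by kinases such as PLK1 and the Aurora kinases. Condensin and topoisomerase II then compact the chromosomes, and the anaphase-promoting complex (APC/C) with its activator CDC20 triggers their separation by marking securin for destruction. Cohesin, the APC/C core and its other activator FZR1 also work outside mitosis. Many late cell cycle promoters carry a CHR element, a site for the MuvB complex with MYBL2 and FOXM1 or, in resting cells, with repressors, together with CCAAT boxes bound by NF-Y. Proliferation genes of this kind serve as markers of dividing tumour cells in lung adenocarcinoma.

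The promoters of members from several stages are shown because they hold these elements close to the start of transcription. Each line gives the 120 bases before the RefSeq start (GRCh38.p14), read 5′ to 3′ on the gene's strand. Capitals mark the CHR element (TTTGAA) and the CCAAT box, which reads ATTGG on the other strand. Neighbouring motifs run together in CDCA8, HMMR and MKI67. The stretches are chr1:43358861-43358980 for CDC20 (plus strand), chr16:23678769-23678888 for PLK1 (plus), chr1:37692396-37692515 for CDCA8 (plus), chr5:163460512-163460631 for HMMR (plus), chr10:128126424-128126543 for MKI67 (minus), chr15:90994536-90994655 for PRC1 (minus) and chr12:53268179-53268298 for ESPL1 (plus).
CDC20: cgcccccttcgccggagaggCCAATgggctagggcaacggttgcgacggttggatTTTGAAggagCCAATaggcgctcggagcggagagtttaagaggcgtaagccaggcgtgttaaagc
PLK1: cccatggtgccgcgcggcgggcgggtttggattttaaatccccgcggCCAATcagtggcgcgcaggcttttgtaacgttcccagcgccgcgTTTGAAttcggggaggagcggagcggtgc
CDCA8: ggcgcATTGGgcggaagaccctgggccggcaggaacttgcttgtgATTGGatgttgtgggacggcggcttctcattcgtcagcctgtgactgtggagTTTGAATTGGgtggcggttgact
HMMR: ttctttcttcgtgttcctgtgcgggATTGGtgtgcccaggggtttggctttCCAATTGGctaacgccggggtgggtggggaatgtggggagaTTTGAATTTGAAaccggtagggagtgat
MKI67: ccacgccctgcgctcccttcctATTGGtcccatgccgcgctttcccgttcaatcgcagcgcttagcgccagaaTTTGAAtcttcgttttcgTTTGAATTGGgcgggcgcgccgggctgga
PRC1: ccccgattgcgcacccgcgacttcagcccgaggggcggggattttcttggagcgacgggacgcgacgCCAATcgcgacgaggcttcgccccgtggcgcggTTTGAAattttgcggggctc
ESPL1: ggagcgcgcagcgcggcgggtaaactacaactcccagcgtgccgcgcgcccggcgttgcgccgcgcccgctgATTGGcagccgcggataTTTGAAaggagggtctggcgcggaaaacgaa

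For comparison, the same stretch is given for CDC27, a subunit of the APC/C core (chr17:47189296-47189415, minus strand), and for UBE2S, the enzyme that extends ubiquitin chains on APC/C targets (chr19:55407789-55407908, minus). Neither stretch holds a CHR element or a CCAAT box on either strand. Each gene has a CCAAT box further upstream, 226 bases before the start for CDC27 and 191 for UBE2S. These stretches are examples and do not stand for all members not called lower in S-AlgLung. INCENP, NCAPD2, NCAPD3 and ECT2, also not called, hold both elements in the longer windows counted below but are not shown. INCENP, NCAPD3 and ECT2 hold both even within a stretch of the length shown, though for NCAPD3 and ECT2 not before every start. In NCAPD2 the CHR element lies further upstream, 145 bases before the start. The stretches shown are therefore not a contrast between members that fell and members not called. In those windows, 69.6% of members that fell and 75% of members not called held the CHR element. For the CCAAT box the shares were 73.9% and 50%.
CDC27: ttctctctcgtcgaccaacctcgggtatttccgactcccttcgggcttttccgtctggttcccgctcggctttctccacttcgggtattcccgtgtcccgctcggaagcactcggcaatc
UBE2S: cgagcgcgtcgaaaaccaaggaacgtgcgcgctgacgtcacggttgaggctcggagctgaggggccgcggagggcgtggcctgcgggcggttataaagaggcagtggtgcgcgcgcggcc

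Total counts per library were between 22978408 and 26495444. The summed level of 7 epithelial and A549 marker genes (KRT8, KRT18, KRT19, EPCAM, CDH1, AKR1B10 and AKR1C1) was 9840 to 18818 CPM (counts relative to library size, after TMM scaling) in S-AlgLung and 14985 to 19382 CPM in AlgLung. Of these, EPCAM was low, at 2.99 to 5.39 CPM in S-AlgLung and 1.53 to 2.34 CPM in AlgLung. The marker genes reported for fibroblasts, immune cells and endothelium were close to 0: the summed levels were 3.12 to 4.61, 0.996 to 1.69 and 3.04 to 3.72 CPM in S-AlgLung, and 3.06 to 3.47, 0.584 to 0.620 and 2.34 to 3.68 CPM in AlgLung. Of these 11 genes, 7 stayed under 1 CPM in every library, PTPRC, CD3E, VWF, DCN, COL1A2, PDGFRB and LUM. S-AlgLung replicate 3 stood apart from the other libraries: MALAT1 and NEAT1, RNAs kept in the nucleus, together reached 240.7 CPM in that library, with 75.7 CPM in S-AlgLung replicate 1, 44.5 CPM in S-AlgLung replicate 2 and 59.1 to 66.7 CPM in AlgLung. Its part in the results was not tested beyond leaving it out.

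Of the 44 mitotic genes, 29 were lower in S-AlgLung and 0 were higher (edgeR quasi-likelihood test, Benjamini-Hochberg adjusted p under 0.05 over 18544 genes). That is 65.9% of the members, against 1.99% of all tested genes called lower and 3.15% called higher. The median log2 fold change (S-AlgLung minus AlgLung) was -1.28 over the members and 0.03 over all tested genes. Values of the 3 S-AlgLung libraries lay below all 3 AlgLung values for 33 members, 75.0% of them, against 8.05% of all tested genes, and above them for 0 members. The background of genes with no overlap was 10.4% in the higher direction. At an unadjusted p under 0.05, 32 members were lower and 0 higher, against 5.81% and 9.1% of all tested genes. DESeq2 called 30 members lower and 0 higher (2.15% and 3.2% of all tested genes), and limma-voom called 29 lower and 0 higher (1.89% and 2.67%).

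The count of members called lower was 25 when AlgLung replicate 1 was dropped (1.35% of all tested genes) and 30 when S-AlgLung replicate 3 was dropped (3.53%). It was 29 in each of the other such fits, against 1.28% and 1.55% of all tested genes when AlgLung replicates 2 and 3 were dropped in turn. The background was 1.33% when S-AlgLung replicate 1 was dropped and 1.8% when S-AlgLung replicate 2 was. At an adjusted p under 0.01 it was 28 (1.17%). Other genes share exons with 13 members, on the opposite strand for TACC3, SMC4, NCAPD2, NCAPG, NCAPD3, RAD21, FZR1, ANLN, FOXM1, PRC1 and NCAPH2 and on the same strand for NUSAP1, ANAPC1, PRC1 and NCAPH2, and since the strand setting is not known, their reads are uncertain. Of these 13, 6 were called lower, and of the other 31, 23. In RNA from whole cultures, fewer dividing cells and less mitotic RNA per cell cannot be told apart.

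Genes were called lower in every group but cohesin, in unequal shares. All 7 entry genes and all 6 spindle genes fell, as did 3 of 4 genes of the chromosomal passenger complex, 4 of 6 cytokinesis genes, 5 of 10 genes of chromosome structure and 4 of 8 anaphase genes. None of the 3 cohesin genes SMC1A, SMC3 and RAD21 was called, at negative log2 fold changes of -0.05, -0.46 and -0.33. The share called lower over all tested genes was 1.99%, so 3 genes without a call are not set apart from other genes. In CPM, which is not scaled for length, the 15 members not called had a median of 31.8 in S-AlgLung and 36.8 in AlgLung. The 29 called ones had a median of 3.29 CPM in S-AlgLung and 11.3 CPM in AlgLung.

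**Figure D1:**
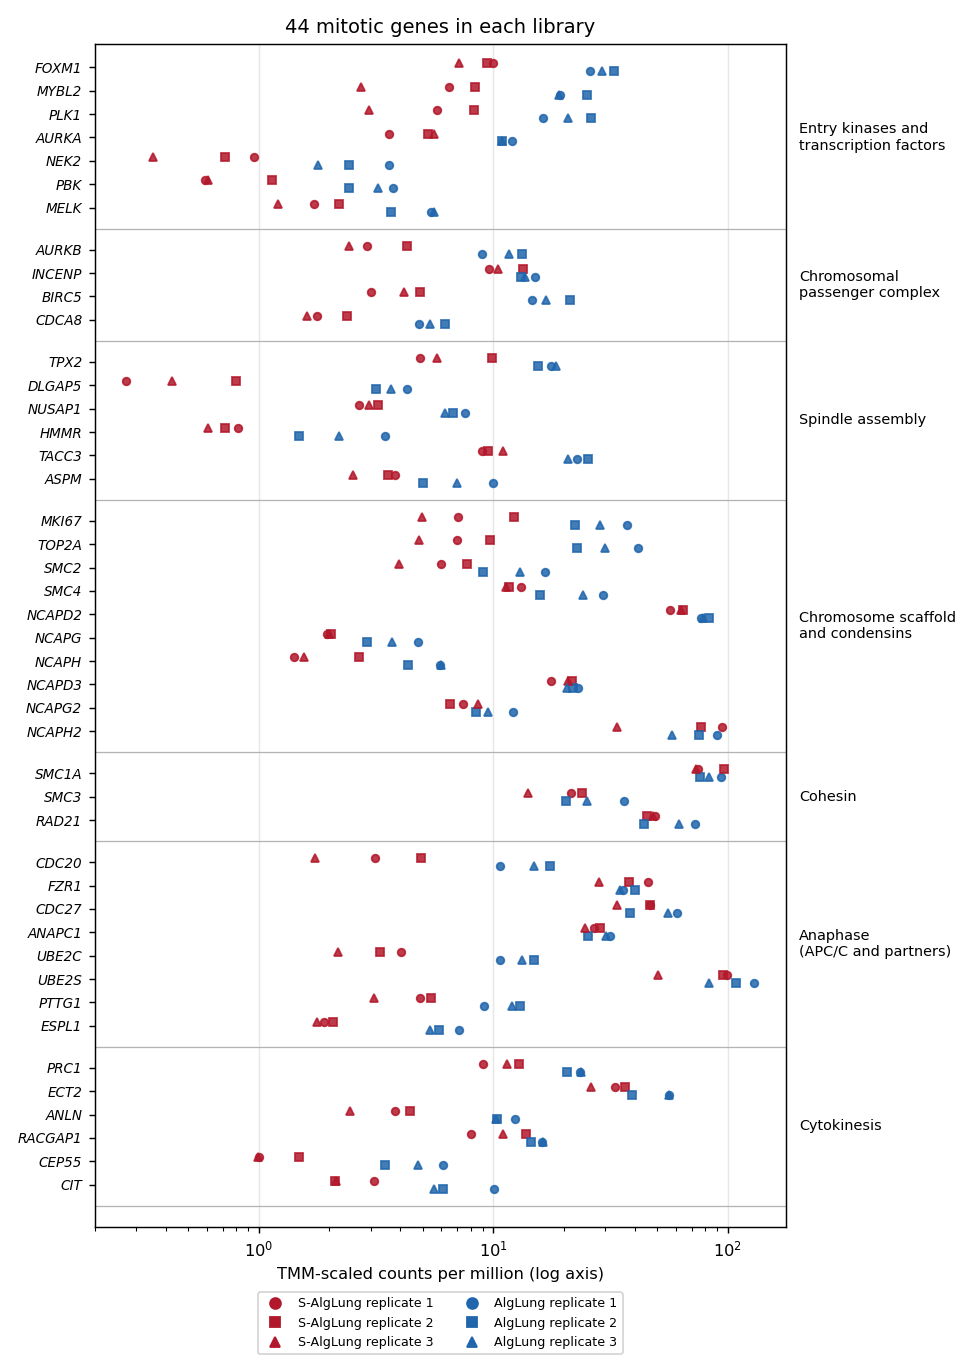
Level of each of the 44 genes in every library, as TMM-scaled CPM on a log axis, with S-AlgLung in red above AlgLung in blue and one marker shape per replicate. Red and blue points are apart for all 13 entry and spindle genes and overlap for the 3 cohesin genes.

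Among the regulators of entry, both transcription factors that drive late cell cycle genes fell. FOXM1 (chromosome 12, 2857680 to 2877174, GRCh38), a forkhead factor, had 9.97, 9.42 and 7.14 CPM in S-AlgLung replicates 1 to 3, against 25.9, 32.7 and 29.02 CPM in AlgLung replicates 1 to 3. The groups did not overlap, and its log2 fold change was -1.73 (SE 0.22, edgeR adjusted p = 8.388e-06), although ITFG2 on the other strand shares exons with it and had 0.908 times its counts. MYBL2 (chromosome 20, 43667019 to 43716495), the MYB protein that joins the MuvB complex, had 6.44, 8.32 and 2.74 CPM in S-AlgLung and 19.2, 25.2 and 19.1 CPM in AlgLung. Its lowest value was in S-AlgLung replicate 3 and its log2 fold change was -1.87 (SE 0.28, adjusted p = 6.442e-05).

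All 5 entry kinases fell. PLK1 (chromosome 16, 23677656 to 23690367), the polo kinase that acts from entry to cytokinesis, had 5.76, 8.23 and 2.95 CPM in S-AlgLung and 16.2, 26.1 and 20.8 CPM in AlgLung. This is a 3.74-fold lower level (log2 fold change -1.90, SE 0.28, adjusted p = 4.519e-05). AURKA (chromosome 20, 56369389 to 56392337), the Aurora kinase of the spindle poles, fell less, to 3.58, 5.28 and 5.58 CPM in S-AlgLung, against 12.0, 10.9 and 10.9 CPM in AlgLung (log2 fold change -1.22, SE 0.24). NEK2, a kinase that separates the centrosomes, PBK, a mitotic kinase, and MELK, a kinase of proliferating cells, were at 0.675 ± 0.301, 0.778 ± 0.314 and 1.71 ± 0.494 CPM in S-AlgLung. In AlgLung they were at 2.60 ± 0.924, 3.12 ± 0.651 and 4.88 ± 1.07 CPM (mean ± SD, n = 3 each). Their log2 fold changes were -1.97, -2.01 and -1.52, and none of the 7 entry genes lost its call when any single library was left out.

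The chromosomal passenger complex corrects faulty attachments of chromosomes to the spindle, and its 4 subunits were not lower to the same extent. BIRC5 (chromosome 17, 78214186 to 78225636), which encodes survivin, had 2.99, 4.86 and 4.16 CPM in S-AlgLung, against 14.6, 21.2 and 16.8 CPM in AlgLung, a difference of -2.13 on the log2 scale (SE 0.25, adjusted p = 1.691e-06). AURKB (chromosome 17, 8204733 to 8210600), the kinase of the complex, had 2.90, 4.26 and 2.42 CPM in S-AlgLung and 8.97, 13.3 and 11.6 CPM in AlgLung (log2 fold change -1.82, SE 0.26). CDCA8, borealin, was at 1.91 ± 0.402 CPM in S-AlgLung and 5.47 ± 0.692 CPM in AlgLung (log2 fold change -1.52, SE 0.28).

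INCENP (chromosome 11, 62123998 to 62153169), the scaffold that binds the other subunits, had 9.57, 13.4 and 10.48 CPM in S-AlgLung and 15.0, 13.1 and 13.6 CPM in AlgLung. These groups overlapped, and the log2 fold change of -0.32 (SE 0.22) did not pass the test (adjusted p = 0.572). The ratio of AURKB to INCENP CPM, compared only between libraries, was 0.303, 0.319 and 0.231 in S-AlgLung replicates 1 to 3 and 0.597, 1.01 and 0.857 in AlgLung replicates 1 to 3. Every S-AlgLung ratio was below every AlgLung ratio, as was already so for AURKB alone. The ratio is therefore not separate support, and this difference was not tested.

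All 6 spindle genes fell, and DLGAP5 had the lowest fold change of the 44. DLGAP5 (chromosome 14, 55148112 to 55191608), a microtubule-binding protein that stabilises the spindle, had 0.272, 0.802 and 0.426 CPM in S-AlgLung, against 4.29, 3.15 and 3.64 CPM in AlgLung. That is 7.32-fold lower (log2 fold change -2.87, SE 0.38, adjusted p = 9.858e-06), with 307 reads in all 6 libraries. TPX2, which activates AURKA on the spindle, had 4.85, 9.84 and 5.72 CPM in S-AlgLung and 17.7, 15.5 and 18.5 CPM in AlgLung (log2 fold change -1.34, SE 0.25). TACC3, which stabilises the fibres that pull chromosomes, was at 9.80 ± 1.06 CPM in S-AlgLung and 22.9 ± 2.19 CPM in AlgLung (log2 fold change -1.22, SE 0.22).

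HMMR, a hyaluronan-binding protein that also acts at spindle poles, had 0.816, 0.718 and 0.604 CPM in S-AlgLung and 3.45, 1.48 and 2.19 CPM in AlgLung. ASPM, a protein of the spindle poles, had 3.81, 3.55 and 2.52 CPM in S-AlgLung and 10.0, 4.99 and 6.995 CPM in AlgLung. Both had their highest value in AlgLung replicate 1, and without it both lost their call, at log2 fold changes of -1.42 (adjusted p = 0.0662) and -0.915 (adjusted p = 0.116), against -1.74 and -1.16 with all libraries. NUSAP1, which bundles spindle microtubules, was at 2.94 ± 0.267 CPM in S-AlgLung and 6.85 ± 0.696 CPM in AlgLung (log2 fold change -1.22). Its reads are uncertain, since 81.4% of its annotated length is shared with a gene without a symbol on the same strand that had 1.82 times its counts.

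**Figure D2:**
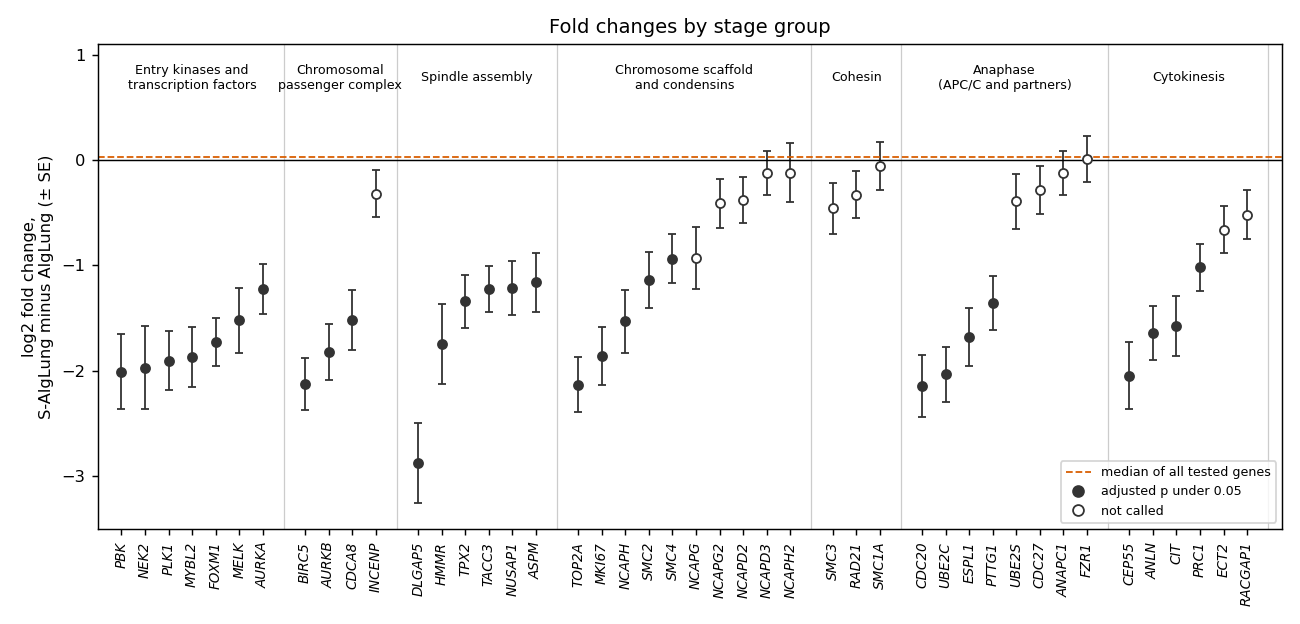
Log2 fold change (S-AlgLung minus AlgLung, with SE bars) of each gene, sorted within its stage group, with filled points for an adjusted p under 0.05 and open points for genes not called. Entry and spindle groups hold filled points alone, while the condensin, anaphase, passenger and cytokinesis groups hold both kinds, and the dashed line marks the median of all tested genes at 0.03.

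Of the genes of chromosome structure, those best known as proliferation markers had the lowest fold changes. TOP2A (chromosome 17, 40388525 to 40417896), the topoisomerase that untangles sister chromatids, had 7.03, 9.71 and 4.797 CPM in S-AlgLung, against 41.2, 22.8 and 30.1 CPM in AlgLung. The level was 4.38-fold lower (log2 fold change -2.13, SE 0.26, adjusted p = 4.114e-06). MKI67 (chromosome 10, 128096659 to 128126423), the Ki-67 coat protein of mitotic chromosomes, had 7.07, 12.2 and 4.97 CPM in S-AlgLung and 37.1, 22.3 and 28.4 CPM in AlgLung. For both genes S-AlgLung replicate 2 was the highest S-AlgLung library and AlgLung replicate 2 the lowest AlgLung library, and the groups stayed apart.

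Condensin I and condensin II share the SMC2 and SMC4 ATPases and differ in their other subunits: NCAPD2, NCAPG and NCAPH belong to condensin I, which reaches chromosomes after the nuclear envelope breaks down, and NCAPD3, NCAPG2 and NCAPH2 to condensin II, which is nuclear throughout the cycle. SMC2 had 5.98, 7.73 and 3.94 CPM in S-AlgLung and 16.7, 9.04 and 13.0 CPM in AlgLung (log2 fold change -1.14, SE 0.27, adjusted p = 0.00741). SMC4 had 13.1, 11.7 and 11.3 CPM in S-AlgLung and 29.3, 15.8 and 24.0 CPM in AlgLung (log2 fold change -0.94, SE 0.23, adjusted p = 0.0125). Both calls were lost without AlgLung replicate 1, at -0.95 for SMC2 (adjusted p = 0.0843) and -0.77 for SMC4 (adjusted p = 0.111).

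Among the condensin I subunits, NCAPH (chromosome 2, 96335766 to 96377091), the kleisin that closes the ring, was the 1 called gene. It had 1.41, 2.66 and 1.56 CPM in S-AlgLung and 5.94, 4.32 and 6.002 CPM in AlgLung, at -1.53 on the log2 scale (SE 0.30, adjusted p = 0.00136). NCAPG had 1.95, 2.03 and 1.99 CPM in S-AlgLung and 4.79, 2.88 and 3.68 CPM in AlgLung. Its groups did not overlap, and its log2 fold change of -0.93 (SE 0.30) missed the threshold (adjusted p = 0.0700). It was called without S-AlgLung replicate 3 (adjusted p = 0.0257) and with DESeq2 (0.0446). NCAPD2 had 56.5, 64.5 and 62.9 CPM in S-AlgLung and 77.0, 83.1 and 78.6 CPM in AlgLung, also without overlap, and was at -0.38 (SE 0.22, adjusted p = 0.459).

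None of the 3 condensin II genes was called by edgeR, DESeq2 or limma-voom, and 0 had an unadjusted p under 0.05. Over all tested genes, these methods called 1.99%, 2.15% and 1.89% lower, and 5.81% were lower at an unadjusted p under 0.05. With such shares, 3 genes without a call are not set apart from other genes. NCAPD3 was at -0.12 (SE 0.21), NCAPG2 at -0.41 (SE 0.23) and NCAPH2 at -0.12 (SE 0.28), with adjusted p between 0.448 and 0.917. NCAPH2 had 94.1, 76.8 and 33.6 CPM in S-AlgLung and 89.7, 75.1 and 57.6 CPM in AlgLung, so S-AlgLung replicate 3 was below the other 5 libraries, and without it the log2 fold change was 0.17. Reads of NCAPH2 are uncertain, since SCO2 on the other strand and a gene without a symbol on the same strand share exons with it. The median log2 fold change was -0.93 for the 3 condensin I subunits and -0.12 for the 3 condensin II subunits, and the difference between them was not tested. The condensin II median was -0.41 when S-AlgLung replicate 1 was dropped and -0.32 when AlgLung replicate 3 was dropped. The number of genes called among the 10 of chromosome structure was 3 without AlgLung replicate 1.

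Scaled for annotated exon length and library size (RPKM), the condensin subunits spanned a wide range of levels. NCAPH2 and NCAPD2 were the highest, at 15.3 and 9.47 RPKM in S-AlgLung and 16.6 and 12.3 RPKM in AlgLung. NCAPG and NCAPH were the lowest, at 0.410 and 0.287 RPKM in S-AlgLung and 0.781 and 0.828 RPKM in AlgLung. With the length of the principal transcript in GENCODE 29 in place of all annotated exons, NCAPH2 and NCAPD2 were again highest (33.5 and 11.05 RPKM in S-AlgLung, 36.4 and 14.3 in AlgLung) and NCAPG and NCAPH lowest (0.427 and 0.679 in S-AlgLung, 0.812 and 1.96 in AlgLung).

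Cohesin holds sister chromatids together from replication to anaphase and folds chromatin into loops outside mitosis. Its ring genes had overlapping groups. SMC1A had 74.4, 96.1 and 72.7 CPM in S-AlgLung and 93.3, 76.3 and 83.1 CPM in AlgLung (log2 fold change -0.05, SE 0.23, adjusted p = 0.960). SMC3 was at 19.8 ± 5.13 CPM in S-AlgLung and 27.2 ± 8.07 CPM in AlgLung (-0.46, SE 0.24), and RAD21, the kleisin that separase cuts, at 47.3 ± 2.03 and 59.4 ± 14.2 CPM in S-AlgLung and AlgLung (-0.33, SE 0.23). No cohesin gene had an unadjusted p under 0.05, and DESeq2 and limma-voom called 0 of the 3. Over all tested genes, 5.81% were lower at an unadjusted p under 0.05, and DESeq2 and limma-voom called 2.15% and 1.89% lower. The ratio of TOP2A to SMC3 CPM was 0.328, 0.406 and 0.341 in S-AlgLung and 1.14, 1.12 and 1.19 in AlgLung, a narrow spread within each hydrogel, and was not tested. TOP2A alone already separated the hydrogels, so this ratio is not separate support.

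Of the 8 anaphase genes, CDC20, UBE2C, PTTG1 and ESPL1 fell, and FZR1, CDC27, ANAPC1 and UBE2S were not called. CDC20 (chromosome 1, 43358981 to 43363203), the activator of metaphase, had 3.13, 4.90 and 1.74 CPM in S-AlgLung, against 10.7, 17.4 and 14.9 CPM in AlgLung. The level was 4.42-fold lower (log2 fold change -2.15, SE 0.29, adjusted p = 1.687e-05). FZR1 (chromosome 19, 3506311 to 3538334), the activator of late mitosis and G1, had 45.5, 37.9 and 28.1 CPM in S-AlgLung and 35.7, 40.2 and 34.5 CPM in AlgLung. Its log2 fold change was 0.01 (SE 0.22, adjusted p = 0.993), with a sign that changed with the scaling of the libraries. The ratio of CDC20 to FZR1 CPM was 0.0687, 0.129 and 0.0620 in S-AlgLung and 0.299, 0.434 and 0.432 in AlgLung, and the difference between the 2 genes was not tested. CDC20 alone already separated the hydrogels, so this ratio is not separate support.

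Of the ubiquitin-conjugating enzymes of the APC/C, UBE2C fell and UBE2S was not called. UBE2C (chromosome 20, 45812576 to 45816957), which starts the ubiquitin chain, had 4.04, 3.29 and 2.17 CPM in S-AlgLung and 10.6, 14.9 and 13.2 CPM in AlgLung (log2 fold change -2.03, SE 0.26, adjusted p = 8.119e-06). UBE2S, which extends it, had 99.0, 94.9 and 50.2 CPM in S-AlgLung and 129.3, 108.5 and 82.7 CPM in AlgLung. The UBE2S groups overlapped and it was at -0.39 (SE 0.26, adjusted p = 0.546). The difference between the 2 genes was not tested.

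Both the target and its partner fell. PTTG1, securin, which the APC/C destroys, had 4.85, 5.40 and 3.09 CPM in S-AlgLung and 9.08, 13.0 and 12.0 CPM in AlgLung (log2 fold change -1.36, SE 0.26, adjusted p = 0.000876). ESPL1, separase, the protease that securin holds back, had 1.90, 2.07 and 1.78 CPM in S-AlgLung and 7.13, 5.89 and 5.38 CPM in AlgLung (log2 fold change -1.68, SE 0.27, adjusted p = 0.000156). The core subunits CDC27, at 42.3 ± 7.37 CPM in S-AlgLung and 51.5 ± 11.7 CPM in AlgLung, and ANAPC1, at 26.7 ± 1.87 and 29.03 ± 3.22 CPM in S-AlgLung and AlgLung, were at -0.28 (SE 0.23) and -0.12 (SE 0.21). Neither was called.

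**Figure D3:**
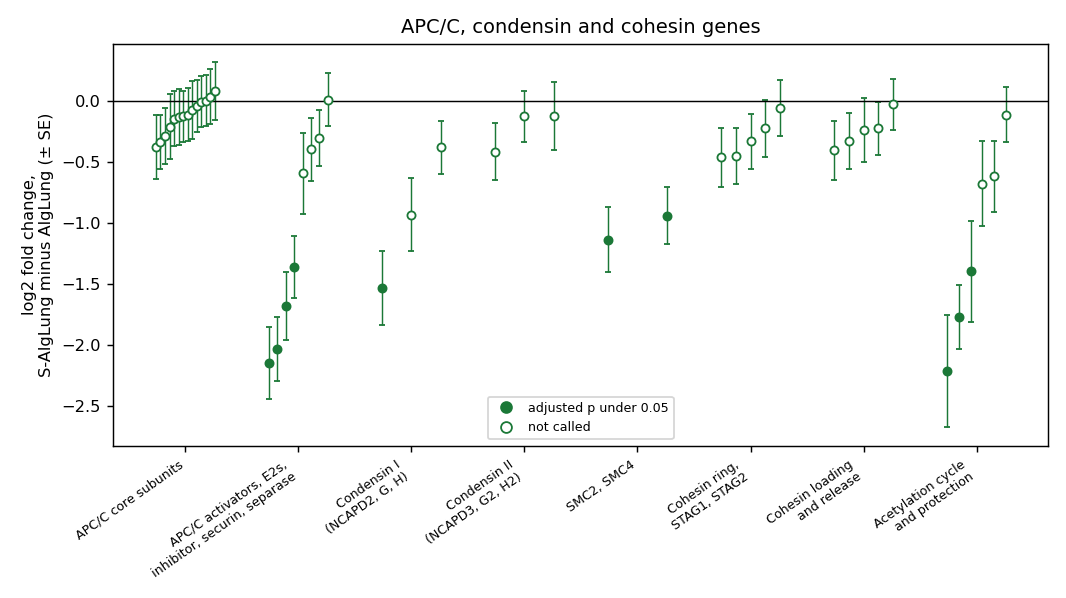
Log2 fold change (S-AlgLung minus AlgLung, with SE bars) of APC/C, condensin and cohesin genes, members and other subunits together, with filled points for an adjusted p under 0.05. The 14 core APC/C subunits lie between -0.37 and 0.08 with no filled point, whereas CDC20, UBE2C, ESPL1 and PTTG1 lie between -2.15 and -1.36. Over all tested genes, 1.99% were called lower and 3.15% higher.

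In cytokinesis, 4 of 6 genes fell, and all 6 had groups that did not overlap. Over all tested genes, 1.99% were called lower and 8.05% were lower without overlap. CEP55 (chromosome 10, 93496612 to 93529092), which recruits the machinery that cuts the bridge between daughter cells, had 0.997, 1.48 and 0.995 CPM in S-AlgLung and 6.09, 3.46 and 4.76 CPM in AlgLung (log2 fold change -2.05, SE 0.32, adjusted p = 8.606e-05). ANLN, anillin, a scaffold of the contractile ring, had 3.81, 4.39 and 2.45 CPM in S-AlgLung and 12.4, 10.4 and 10.3 CPM in AlgLung (-1.64, SE 0.26). CIT, citron kinase of the midbody, was at 2.44 ± 0.555 CPM in S-AlgLung and 7.25 ± 2.47 CPM in AlgLung (-1.57, SE 0.29).

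PRC1, which bundles the microtubules of the central spindle, was at 11.1 ± 1.91 CPM in S-AlgLung and 22.5 ± 1.70 CPM in AlgLung (-1.02 on the log2 scale, SE 0.22, adjusted p = 0.00335). On the same strand, an unnamed gene covers 57.6% of the annotated length of PRC1 and had 2.33 times its counts, so these reads are uncertain. The other 2 cytokinesis genes did not pass. ECT2, a guanine nucleotide exchange factor that acts at the cell equator, had 33.1, 36.4 and 25.97 CPM in S-AlgLung and 56.0, 38.8 and 56.0 CPM in AlgLung (-0.66, SE 0.22, adjusted p = 0.0949). RACGAP1, its partner and a subunit of the centralspindlin complex, had 8.02, 13.8 and 10.98 CPM in S-AlgLung and 16.2, 14.5 and 16.3 CPM in AlgLung (-0.52, SE 0.23, adjusted p = 0.269).

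Another 83 genes of the same machinery were examined, a list drawn up with earlier results of these data known. Of these, 18 were lower and 1 higher in S-AlgLung, 21.7% lower against 1.99% of all tested genes, and the median log2 fold change was -0.25. Around mitotic entry 4 of 17 genes fell, among them the cyclin genes CCNB2 (3.51 ± 0.373 CPM in S-AlgLung and 9.001 ± 0.415 CPM in AlgLung, log2 fold change -1.35), CCNB1 (-1.28) and CCNA2 (-1.55), and CDK1, their kinase (-1.15). Dropping AlgLung replicate 1 or S-AlgLung replicate 1 left CDK1 uncalled (adjusted p = 0.0811 and 0.0997). Of 20 spindle genes 6 fell, among them SPAG5, astrin (3.72 ± 0.113 CPM in S-AlgLung and 12.2 ± 0.863 CPM in AlgLung, -1.71), and the kinesin genes KIF11 (-1.61) and KIF18B (-1.91).

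None of 14 further APC/C genes was called by edgeR, DESeq2 or limma-voom, and 0 had an unadjusted p under 0.05. Over all tested genes, edgeR, DESeq2 and limma-voom called 1.99%, 2.15% and 1.89% lower and 3.15%, 3.2% and 2.67% higher. At an unadjusted p under 0.05, 5.81% were lower and 9.1% higher. With such shares, 14 genes without a call are not set apart from other genes. The 3 with the smallest p were the APC/C inhibitor FBXO5 (log2 fold change -0.59, SE 0.33, adjusted p = 0.432) and the subunits ANAPC15 (-0.34, SE 0.22) and ANAPC4 (-0.37, SE 0.26). Of 13 cohesin partners 3 fell: CDCA5, sororin (-1.77, SE 0.26, adjusted p = 4.107e-05), ESCO2, the acetyltransferase of replicating cells (-2.21, SE 0.46, adjusted p = 0.00229), and SGO1, shugoshin, which protects centromeric cohesin (-1.39, adjusted p = 0.0458). The SGO1 call was lost when any library but S-AlgLung replicate 3 was left out, with adjusted p between 0.0873 and 0.225. It was also absent with DESeq2 (adjusted p = 0.0507), limma-voom (0.06585) and edgeR on total counts alone (0.0622). SGO1 had 0.460 ± 0.00581 CPM in S-AlgLung and 1.21 ± 0.284 CPM in AlgLung. ESCO2 was also low, at 0.283 ± 0.0556 CPM in S-AlgLung and 1.33 ± 0.460 CPM in AlgLung.

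Of 19 further cytokinesis genes 5 fell, with SHCBP1, a midbody protein, at -2.41 (SE 0.33, adjusted p = 1.58e-05) and the kinesin genes KIF20A and KIF4A at -1.86 and -2.02. The 1 gene that rose, named after its value was seen, was ARHGEF39, at 205.3 ± 24.7 CPM in S-AlgLung and 86.4 ± 11.4 CPM in AlgLung (1.25, SE 0.24, adjusted p = 0.00112). Without AlgLung replicate 3 it was at 1.103 (adjusted p = 0.0545), and CA9, which shares exons with it on the other strand, had 1.85 times its counts. Some named further genes that fell also share exons with a gene on the other strand, so their reads are uncertain too. The partner's counts were 1.80 times those of CCNA2 (EXOSC9), 5.61 times those of SPAG5 (SPAG5-AS1) and 6.97 times those of KIF20A (BRD8). They were 10.87 times those of KIF4A (PDZD11) and 0.431 times those of SGO1 (SGO1-AS1).

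The promoter elements shown above were found both in members that fell and in members not called. RefSeq windows of 300 bases, from 250 before to 50 after a start, were at hand for 35 of the 44 members, and a gene counted if any of its windows held a motif on either strand, overlapping matches included. The CHR element was searched as TTTGAA and as TTCGAA, and the CCAAT box as CCAAT. Of 23 members that fell, 16 (69.6%) held the CHR element, 17 (73.9%) a CCAAT box and 13 (56.5%) both. Of 12 members not called, 9 (75%) held the CHR element, 6 (50%) a CCAAT box and 4 (33.3%) both, with INCENP, NCAPD2, NCAPD3 and ECT2 holding both. Over all 27305 genes of the table the shares were 19.5%, 39.7% and 7.85%, and over its 35116 windows 16.4%, 34.6% and 6.38%. Over the 11783 tested genes with a window they were 15.4%, 42.2% and 6.39%.

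Among the further genes of the machinery, 17 that fell and 61 not called had a window, of which 13 (76.5%) and 16 (26.2%) held the CHR element. A CCAAT box was held by 13 (76.5%) and 31 (50.8%), and both elements by 10 (58.8%) and 8 (13.1%). These counts are descriptions of letters in fixed windows and were not tested.

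The libraries of one hydrogel did not move as one over the members. S-AlgLung replicate 3 held the lowest S-AlgLung value for 27 of 44 members (61.4%), against 34.6% of all tested genes, and S-AlgLung replicate 2 the highest for 29 (65.9%), against 25.9% of all tested genes. MYBL2, PLK1 and CDC20 were 2.74, 2.95 and 1.74 CPM in S-AlgLung replicate 3 and 8.32, 8.23 and 4.90 CPM in S-AlgLung replicate 2. In AlgLung, replicate 1 was the highest for 27 members (61.4%), against 38.9% of all tested genes, and replicate 2 the lowest for 24 (54.5%), against 40.7% of all tested genes.

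AlgLung replicate 2 was low mainly for long genes, a pattern noticed in these values. It was the highest AlgLung library for 12 members, CDC20, PLK1, BIRC5, AURKB, UBE2C, PTTG1, CDCA8, MYBL2, FOXM1, TACC3, FZR1 and NCAPD2, with a median annotated length of 3296 bases. The 24 members lowest there, among them MKI67, TOP2A, SMC2, SMC3 and HMMR, had a median of 5948 bases. Over all tested genes the median log2 ratio of AlgLung replicate 2 to the mean of the other AlgLung libraries was 0.15 in the third of 10 equal bins by length (median 2148 bases) and -0.27 in the longest bin (median 14107 bases). The correlation of this ratio with log2 length was -0.42 across the 44 members and -0.19 across all 18544 tested genes, points that share the same libraries. The log2 fold change between hydrogels correlated with log2 length at 0.45 across the members and -0.08 across all tested genes.

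With offsets for length and GC content, chosen after seeing the data, 26 members were called lower and 0 higher, against 1.47% and 3.14% of all tested genes, and 3 of the 10 genes of chromosome structure were called. The calls of ASPM, SMC2 and SMC4 were lost there, at log2 fold changes of -0.81, -0.75 and -0.59 (adjusted p = 0.104, 0.234 and 0.114). Of the 83 further genes, 15 were called lower with the offsets, against 18 without them: CDK1 (-0.83, adjusted p = 0.17), KIF18A, a spindle kinesin (-1.19, adjusted p = 0.0627), and SGO1 (-1.21, adjusted p = 0.0732) were not called there. The part of length in the other results was not tested.

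**Figure D4:**
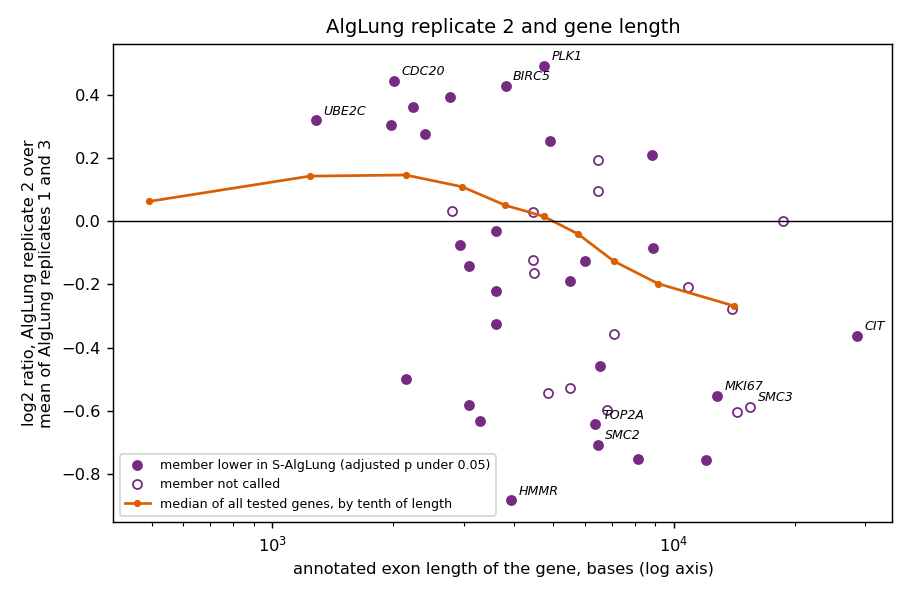
Log2 ratio of AlgLung replicate 2 to the mean of AlgLung replicates 1 and 3 against annotated exon length (log axis), with filled points for members lower in S-AlgLung, open points for members not called and a line for the median of all tested genes in 10 bins of length. The line runs from 0.15 in the third bin to -0.27 in the longest bin, and the members scatter widely about it.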

How the data were processed

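RNA of 6 A549 libraries was sequenced, 3 grown in S-AlgLung and 3 in AlgLung hydrogel. Per the labels' protocols, RNA was extracted with TRIzol and a NucleoSpin column, and a provider made and sequenced the libraries and trimmed adaptors. STAR 2.7.3a on GRCh38 aligned the reads and featureCounts counted them, per the submitters' processing notes. For featureCounts the version, annotation and use of strand were not stated, so antisense partners cannot be told apart. The authors deposited whole-number counts per gene, not normalized. AlgLung replicate 1 has 2 columns with 0 differing genes, counted as 1 sample. Of 62703 IDs, 62625 matched the name table.

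Genes were filtered with filterByExpr (minimum count 10), leaving 18544, among them all 44 members, and tested with the quasi-likelihood test of edgeR 4.0.16 (R 4.3.3) on TMM factors without a block. Standard errors are the size of the log2 fold change over the square root of F. CPM are TMM-scaled. Marker sums use the same factors. One immune marker is not reported here and is left out of its sum. Alternatives were other scalings, DESeq2 1.42.0, limma-voom (limma 3.58.1), other filters, a replicate block, an adjusted p under 0.01 and each library left out; length and GC offsets (loess span 0.3, GC known for 96.2% of tested genes) came after seeing the data. The script was tested on simulated data. The members and lists were chosen with earlier results of these data known. All 44 members were named, with the 3 genes of smallest p in each further list. CDK1, KIF18A and ARHGEF39 were named in addition, outside this rule. An exon overlap was kept for a partner with at least 25% of a gene's counts, and those of the further genes are given in part. 13 members had one, and of the 31 without, 23 were called lower. Depth was 22978408 to 26495444 counts per library, which limits precision for genes with few reads.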

Additional observations from a re-analysis of the deposited data

How the results depend on the processing

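The number of members called lower was 25 to 31 in every alternative run and the number called higher was 0; with an adjusted p under 0.01 it was 28. Over the 44 members and 16 alternatives, 676 values kept their direction and side of the threshold, 8 lost a call, 5 gained one and 15 changed sign, none of them called. Leaving out 1 library at a time, the members' median log2 fold change ran between -1.44 and -1.22, condensin I between -1.09 and -0.77 and condensin II between -0.41 and -0.13; genes of chromosome structure called lower numbered 3 to 6, all genes called lower 244 to 662 and higher 289 to 891, further genes called higher 0 to 2. At an adjusted p under 0.01, 217 genes were lower and 323 higher; total counts alone gave 333 higher genes and a condensin II median of -0.27. Length and GC offsets gave 3 genes of chromosome structure and a condensin I median of -0.65; a minimum mean of 1 CPM gave 1 cohesin partner. FZR1, near 0, was at -0.0005657 with DESeq2 size factors, -0.11 with total counts, -0.025 with upper-quartile factors, -0.0005444 with the DESeq2 test and -0.0095 with limma-voom. Leaving out single libraries, FZR1 ran between -0.1595 and 0.1469, NCAPH2 between -0.425 and 0.1713 (above 0 without S-AlgLung replicate 3) and SMC1A between -0.1979 and 0.002235 (above 0 without S-AlgLung replicate 1). The offsets put SMC1A, CDC27 and ANAPC1 at 0.047, 0.086 and 0.0040. Causes were not tested. Same-numbered libraries of the hydrogels deviated together weakly (correlations 0.072, 0.29 and 0.041), and differently numbered ones had correlations from -0.34 to 0.21. These few values cannot settle whether a number marks a shared culture, which the labels do not state. With the replicate number as a block, 31 members were called lower (all genes: 500 lower, 800 higher). ECT2 (edgeR adjusted p = 0.0343) and NCAPG (0.0414) were added there, and FZR1 was at -0.011. Members under about 1 CPM in S-AlgLung, such as DLGAP5, NEK2, PBK and HMMR, are the least precise, as are further genes at such levels, such as ESCO2 and SGO1.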
